A study of Mus musculus with 9 samples.

Results

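The genes described here are 10 heat shock proteins and chaperones of the embryonic mouse lens: the small heat shock protein *Hspb1*, the cytosolic HSP90 genes *Hsp90aa1* and *Hsp90ab1*, the HSP70 and HSP110 genes *Hspa8*, *Hspa4* and *Hsph1*, the J-domain co-chaperones *Dnajb1* and *Dnaja1*, and the mitochondrial chaperonin genes *Hspd1* and *Hspe1*. They were taken by gene symbol from a processed RNA-seq table, not by a rule on their values, although earlier results of these data were known. Each symbol matched 1 entry, so that 10 of 15820 entries with a symbol are described. RNA of mouse lenses at E16.5 (counted in days of embryonic development) was sequenced in 3 groups of 3 libraries, with 8 lenses pooled in each library. Control lenses were *Mafg*+/-:*Mafk*+/-, compound KO lenses were *Mafg*-/-:*Mafk*+/- and double KO lenses were *Mafg*-/-:*Mafk*-/-. The null alleles are germline, so they are not restricted to the lens, and the control embryos also carry a null allele of both genes. All values are normalized CPM, the reads of an entry relative to the size of its library, scaled by the authors for library composition, and the read depth behind them is not given in the sources used here.

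Chaperones bind proteins that are unfolded or not yet folded and keep them from aggregating. HSP70 proteins take up such clients with the help of J-domain co-chaperones and release them through nucleotide exchange factors such as the HSP110 proteins, while HSP90 acts later, on clients that are close to their native state. Lens fiber cells lose their nuclei and organelles and keep their proteins for life, and the small heat shock proteins named alpha-crystallins serve in them both as structural proteins and as chaperones. Mafg and Mafk are small Maf proteins, which lack a transactivation domain and bind DNA as homodimers or with CNC and Bach partners at Maf recognition and antioxidant response elements.

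None of the 10 chaperone genes changed beyond the threshold in any of the 3 comparisons between genotypes. The smallest unadjusted p belonged to the J-domain co-chaperone *Dnajb1* in double KO against control lenses. *Dnajb1* averaged 214.6 ± 8.50 CPM in control lenses and 177.8 ± 5.35 in double KO lenses (SD, n = 3), and its relative *Dnaja1* averaged 231.7 ± 2.62 and 202.4 ± 12.8 (SD, n = 3). The HSP110 gene *Hsph1* averaged 70.5 ± 4.36 CPM in control and 57.5 ± 6.24 in double KO lenses (SD, n = 3). For these 3 genes every double KO library was below every control library, which was so for 8.04% of all entries tested, and no adjusted p was below 0.162. *Hsp90aa1* was the only one of the 10 with a higher mean in double KO than in control lenses.

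The targeted genes were checked first. *Mafg* lay between 112.9 and 134.5 CPM in control, between 10.1 and 24.1 in compound KO and between 21.2 and 26.2 in double KO libraries. *Mafk* lay between 5.2 and 6.3 CPM in control, between 4.3 and 5.3 in compound KO and between 0.0 and 0.6 in double KO libraries. Both genes follow the labelled genotypes in all 9 libraries. Of lens fiber markers 11 of 11, and of lens epithelial markers 6 of 6 in the table, were above 1 CPM in at least 1 library of every group. Compound KO replicate 1 stands apart. Of its fiber markers 8 of 11 were at their lowest of the 9 libraries, and 8 of 8 neural retina, 5 of 5 retinal pigment epithelium, 8 of 9 mesenchyme and 9 of 10 skeletal muscle markers were at their highest in it. In double KO replicate 1 the fiber crystallin gene *Cryba1* was at 29248.4 CPM, against 57264.1 and 61430.0 in the other double KO libraries, while *Mip*, a fiber membrane channel, was at 7835.2 against 8728.1 and 8987.1. Muscle markers summed to 2.8 to 5.2 CPM in control, 22.2 to 409.7 in compound KO and 30.5 to 99.2 in double KO libraries, with 10 of 10 higher in every double KO than in every control library and 8 of 10 below 1 in all control libraries, and erythroid markers summed to 1198 to 1656, 1442 to 2896 and 2382 to 3975 CPM. The part that these other cells play in the values below was not tested, and fewer cells of a type and less RNA per cell cannot be told apart in whole lenses.

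Heat shock factors bind inverted repeats of nGAAn units, and such elements drive the stress response of several of these genes. The promoters are shown because they bear on what the 10 genes share apart from their names. Promoter sequences from 250 bases before to 50 after a start site were given for 7 of the 10 genes in a RefSeq table (build GRCm38.p6), and each was found at 1 place in GRCm39, whose coordinates are used here. A pair of inverted units, GAANNTTC or TTCNNGAA (both are their own reverse complement, so both strands are covered), was present in 5 of the 7 genes, against 17.0% of the 27025 genes with such a sequence. Here and for the motifs below, a gene counted if any of its windows held a match. The 7 genes have 12 windows and the 27025 genes have 32851, and the shares are not adjusted for this. *Hspd1* and *Hspe1* stand head to head and share theirs, so that 1 site counts for both. In GENCODE *Hspd1* (chr1:55116989-55171038, minus strand) spans all of *Hspe1* (chr1:55127260-55130476, plus strand), and whether the reads were counted by strand is not given in the sources used here. The stretches printed are read 5′ to 3′ on the strand of the gene, with the paired units in capitals. The stretch of *Hspe1* lies 95 to 66 bases before its start site (chr1:55127212-55127241, plus strand), and that of *Hspd1* is the same place on the minus strand, where it falls in an annotated *Hspd1* exon. That of *Dnaja1* lies at chr4:40722333-40722362 (plus strand, in an annotated *Dnaja1* exon), that of *Hsph1* at chr5:149559816-149559845 (minus strand, in an annotated *Hsph1* exon), and that of *Hspb1* at chr5:135916616-135916723 (plus strand, upstream of the gene and outside annotated exons).
*Hspe1*: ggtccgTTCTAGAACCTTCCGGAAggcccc
*Hspd1*: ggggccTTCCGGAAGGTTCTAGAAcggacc
*Dnaja1*: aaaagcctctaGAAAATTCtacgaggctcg
*Hsph1*: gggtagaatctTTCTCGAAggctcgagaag
*Hspb1*: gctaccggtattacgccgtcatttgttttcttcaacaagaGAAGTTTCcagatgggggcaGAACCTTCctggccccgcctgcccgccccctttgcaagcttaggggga

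*Hspe1* and *Hspd1* hold 3 overlapping pairs in 18 bases, *Hspb1* holds 2 separate pairs, and *Dnaja1* holds a single pair. *Hsph1* has further pairs just after its start site, besides the pair shown. *Dnajb1* and *Hspa4* hold no such pair in these windows. The core of the antioxidant response element, TGACNNNGC on either strand, at which small Maf proteins pair with CNC partners, was found in *Hsph1* and *Dnajb1*, that is in 2 of the 7 genes, against 14.0% of all genes. The Maf recognition core TGCTGA on either strand was found in *Dnaja1* alone, against 21.7% of all genes. These matches describe letters in a window and no binding was measured here.

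*Hspb1*, a small heat shock protein that holds unfolded clients and guards actin filaments, had low values in these lenses. Its values were 8.1, 6.8 and 10.8 CPM in control libraries, 12.5, 7.7 and 9.1 in compound KO and 7.2, 3.9 and 6.4 in double KO libraries. Double KO libraries were all below the compound KO libraries and overlapped with control. Estimated log2 fold changes were -0.50 (SE 0.25, 95% interval -1.13 to 0.13) for double KO against control and -0.67 (SE 0.27, 95% interval -1.33 to 0.00260) for double KO against compound KO, with adjusted p of 0.602 and 0.665. Fold changes throughout are on the scale of log2 of the value plus 1, so they understate the change of genes as low as *Hspb1*. Its highest value was in compound KO replicate 1, and without that library the difference between compound KO and control moved from 0.17 to -0.0080.

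**Figure D1:**
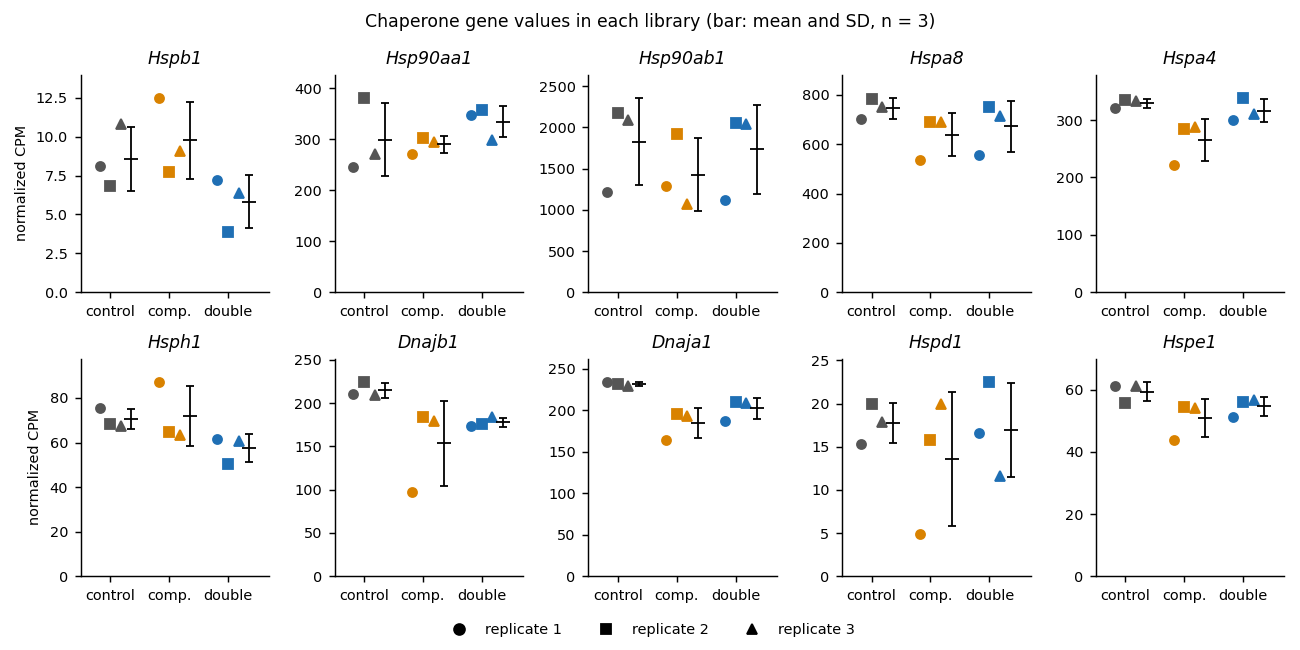
Normalized CPM of each of the 10 chaperone genes (vertical axes from 0, own scale for each gene) in control, compound KO and double KO lenses, with a symbol for each replicate and a bar for the mean ± SD of 3 libraries. *Dnajb1* and *Dnaja1* are below every control library in all libraries of both other genotypes. On the deposited scaling, compound KO replicate 1 (orange circle) is the lowest of the 9 libraries for 6 of the 10 genes.

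The cytosolic HSP90 proteins are encoded by *Hsp90aa1*, the form that rises most under stress, and by *Hsp90ab1*, the constitutive form. *Hsp90aa1* was at 245.2, 380.9 and 270.7 CPM in control, 271.7, 301.9 and 295.0 in compound KO and 346.4, 357.4 and 299.1 in double KO libraries. Control replicate 2 was the highest of all 9 libraries, so the groups overlapped although the other control libraries were the lowest. Double KO lenses had a log2 fold change of 0.18 (SE 0.18) against control and of 0.20 (SE 0.10) against compound KO lenses.

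*Hsp90ab1* had the highest value of the 10 genes and a wide spread within every group. It was at 1215.4, 2175.5 and 2090.6 CPM in control, 1287.9, 1922.7 and 1073.1 in compound KO and 1113.9, 2056.8 and 2036.2 in double KO libraries. Each genotype had at least 1 library from 1073.1 to 1287.9 CPM and at least 1 from 1922.7 to 2175.5, so the spread did not follow genotype. Among the 6193 entries without a symbol, 1 entry was at 932.5 CPM in control replicate 1, 857.4 in compound KO replicate 3 and 925.5 in double KO replicate 1, and at 0.0 or 0.1 in the other 6 libraries. Those 3 libraries are the ones with the lowest *Hsp90ab1* values in the table, and the remaining low one is compound KO replicate 1. The entry was found after the values were seen, by searching for the entry whose sum with *Hsp90ab1* varies least over the 9 libraries: the SD fell from 474.1 to 267.9 CPM with it, and to 400.2 with the next best entry. The same search leaves 39.1% to 65.9% of the SD in the other 9 genes, and 56.5% in *Hsp90ab1*. The size of the fall alone therefore does not mark this entry out, and whether it belongs to *Hsp90ab1* was not tested. The table does not say which transcript the entry stands for. With it added, *Hsp90ab1* was 2138 ± 43.3 CPM in control, 1714 ± 369 in compound KO and 2044 ± 11.4 in double KO lenses (SD, n = 3), against 1827 ± 532, 1428 ± 442 and 1736 ± 539 without it. The log2 fold change for double KO against control was -0.082 (SE 0.34, 95% interval -0.92 to 0.75) for the *Hsp90ab1* entry and -0.065 (SE 0.042, 95% interval -0.17 to 0.039) for the sum. The entry was picked to make the sum vary least over these libraries, so the smaller SDs and the narrower interval follow from that choice and are no result about *Hsp90ab1*.

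**Figure D2:**
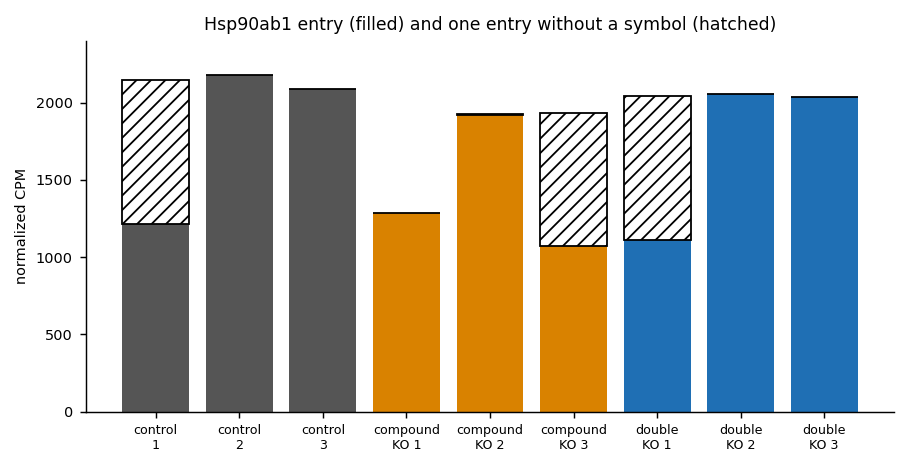
Normalized CPM (vertical axis from 0) of the *Hsp90ab1* entry (filled bars, coloured by genotype) and of the entry without a symbol described in the text (hatched, stacked on top) in each of the 9 libraries. The hatched part is visible only in control replicate 1, compound KO replicate 3 and double KO replicate 1, and it brings these to 2148, 1930 and 2039 CPM.

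*Hspa8*, the constitutive HSP70 of the cytosol, was at 701.5, 785.6 and 750.8 CPM in control, 538.2, 688.6 and 690.9 in compound KO and 555.6, 749.7 and 715.9 in double KO libraries. All compound KO libraries were below all control libraries, while the double KO libraries overlapped with control. The log2 fold change for double KO against control was -0.16 (SE 0.12), and -0.024 without double KO replicate 1. *Hspa4*, an HSP110 protein that acts as a nucleotide exchange factor of HSP70, was the steadiest of the cytosolic genes between control and double KO lenses. It was at 320.8, 335.2 and 332.5 CPM in control, 222.6, 284.6 and 288.6 in compound KO and 299.7, 338.8 and 311.1 in double KO libraries. Compound KO libraries lay below all other libraries for this gene. Double KO against control gave a log2 fold change of -0.059 (SE 0.057), and compound KO against control gave -0.32 (SE 0.12, adjusted p = 0.481). The latter was -0.20 without compound KO replicate 1, and -0.065 with libraries scaled by their totals alone.

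*Hsph1*, the other HSP110 gene, differed in its pattern from *Hspa4*. It was at 75.5, 68.5 and 67.5 CPM in control, 87.2, 64.8 and 63.5 in compound KO and 61.4, 50.3 and 60.8 in double KO libraries. The double KO libraries were the lowest 3 of the 9 libraries and overlapped with no other group. This gave a log2 fold change of -0.29 (SE 0.096, 95% interval -0.53 to -0.055, adjusted p = 0.403) for double KO against control and -0.31 (SE 0.16, adjusted p = 0.665) for double KO against compound KO, which was -0.16 without compound KO replicate 1. On the deposited scaling, *Hsph1* was higher in compound KO replicate 1 than in any other library, as was *Hspb1*, whereas *Hspa4* and *Hspa8* were lowest there. This order was not examined under other scalings. With libraries scaled by their totals alone, *Hspa8* in compound KO against control moved from -0.23 to 0.027.

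*Dnajb1* (HSP40) delivers clients to HSP70 and drives the release of proteins from aggregates. It was at 210.1, 224.4 and 209.3 CPM in control, 97.2, 184.0 and 178.9 in compound KO and 173.9, 175.6 and 183.9 in double KO libraries. Both groups of *Mafg*-null lenses lay below control, and apart from compound KO replicate 1 their values fell in the narrow range of 173.9 to 184.0. Double KO against control gave a log2 fold change of -0.27 (SE 0.048, 95% interval -0.39 to -0.15), with an unadjusted limma p of 0.00165 and an adjusted p of 0.162. For compound KO against control it was -0.54 (SE 0.26, adjusted p = 0.481), and -0.24 (SE 0.051, adjusted p = 0.264) without compound KO replicate 1. Double KO against compound KO gave 0.27 (SE 0.26), and -0.029 (SE 0.049) without that library.

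*Dnaja1*, a J-domain co-chaperone with a farnesyl anchor that also works with HSP70 in the cytosol, showed a similar picture. It was at 234.1, 232.1 and 228.9 CPM in control, 164.1, 195.8 and 193.8 in compound KO and 187.7, 210.4 and 209.2 in double KO libraries. The control libraries varied by 2.62 CPM (SD) and lay above all others. Against them, double KO lenses had a log2 fold change of -0.20 (SE 0.056, 95% interval -0.34 to -0.056, adjusted p = 0.349). It was -0.33 (SE 0.092, adjusted p = 0.481) for compound KO against control, and -0.25 (SE 0.037, adjusted p = 0.189) without compound KO replicate 1.

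*Hspd1* (HSP60) and *Hspe1* (HSP10) encode the barrel and the lid of the mitochondrial chaperonin. *Hspd1* was at 15.3, 20.0 and 17.9 CPM in control, 4.9, 15.8 and 19.9 in compound KO and 16.6, 22.5 and 11.6 in double KO libraries. *Hspe1* was at 61.1, 55.8 and 61.3 CPM in control, 43.7, 54.5 and 54.1 in compound KO and 51.2, 56.1 and 56.7 in double KO libraries. *Hspd1* overlapped between all groups, and for *Hspe1* the compound KO libraries lay below control. Double KO against control gave a log2 fold change of -0.10 (SE 0.24) for *Hspd1* and -0.12 (SE 0.067) for *Hspe1*. Although the genes share a promoter region and their products work in a complex, over 9 libraries their values correlated with Pearson's r of 0.72, and of -0.13 over the 8 libraries without compound KO replicate 1. These correlations describe libraries that share genotype and composition and carry no test.

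Over the 10 genes, double KO against control lenses gave 0 calls, where a call needs both a 1.5-fold change or more and an adjusted p no higher than 0.05, against 0.361% of the 14122 entries tested (51 entries, 40 elevated and 11 reduced). By limma, 3 of the 10 genes (*Dnajb1*, *Dnaja1* and *Hsph1*) had an unadjusted p of at most 0.05, all with lower values, against 9.97% of all entries in either direction and 5.18% in this direction. With libraries scaled by their totals alone, in place of the composition scaling of the deposited values, only *Dnajb1* of the 10 did. These 3 are also the ones without overlap between the groups, against 15.8% of all entries in either direction and 8.04% in this direction. The log2 fold change was below 0 for 9 of the 10 genes, with a median of -0.14, against 47.2% of entries and a median of 0.011 over all entries. Under that scaling the median over all entries was 0.073 and that of the 10 genes was -0.068, *Hspa4* turned to 0.011 and 8 of the 10 genes were below 0. For 6 of the 10 genes the 95% interval lay within a 1.5-fold change in either direction, and it reached 1.5-fold for *Hspb1*, *Hsp90aa1*, *Hsp90ab1* and *Hspd1*.

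Compound KO against control lenses likewise gave 0 calls among the 10 genes, and 0% of 14348 entries were called, although 9.30% had an unadjusted limma p of at most 0.05. Of the 10 genes, *Dnaja1* and *Hspa4* had an unadjusted p of at most 0.05, both lower in compound KO lenses, as 3.97% of entries were. The libraries did not overlap for 5 genes (*Hspa8*, *Hspa4*, *Dnajb1*, *Dnaja1* and *Hspe1*), all lower in compound KO lenses, against 23.9% of entries in either direction and 11.7% in this direction. The log2 fold change was below 0 for 8 of the 10 genes, against 48% of entries, and its median was -0.28, and -0.13 without compound KO replicate 1. These values depend on the scaling. Overlap between libraries was counted on the deposited scaling alone, here and in the other comparisons. With libraries scaled by their totals alone, the median over all entries moved to 0.24, that of the 10 genes to -0.020, and *Hsp90aa1* (0.24), *Hspa8* (0.027) and *Hspe1* (0.024) changed direction, while *Dnajb1* (-0.28), *Dnaja1* (-0.075) and *Hspa4* (-0.065) stayed below 0. None of the 10 genes then had an unadjusted p of at most 0.05. This comparison and the preceding one share the control libraries.

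Double KO against compound KO lenses addressed the loss of *Mafk* in lenses that lack *Mafg*. None of the 10 genes was called, against 0.0139% of 14402 entries, and none had an unadjusted limma p of at most 0.05, against 4.87%. The libraries did not overlap for *Hspa4*, which was higher in double KO lenses, and for *Hspb1* and *Hsph1*, which were lower, against 15.6% of entries in either direction, 8.17% higher and 7.39% lower. The median log2 fold change of the 10 genes was 0.17, with 2 below 0 against 50.8% of entries, and -0.011 with 5 below 0 without compound KO replicate 1. With libraries scaled by their totals alone, the median over all entries moved to -0.17, that of the 10 genes to -0.017, and *Hspa8*, *Dnaja1* and *Hspe1* turned below 0.

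**Figure D3:**
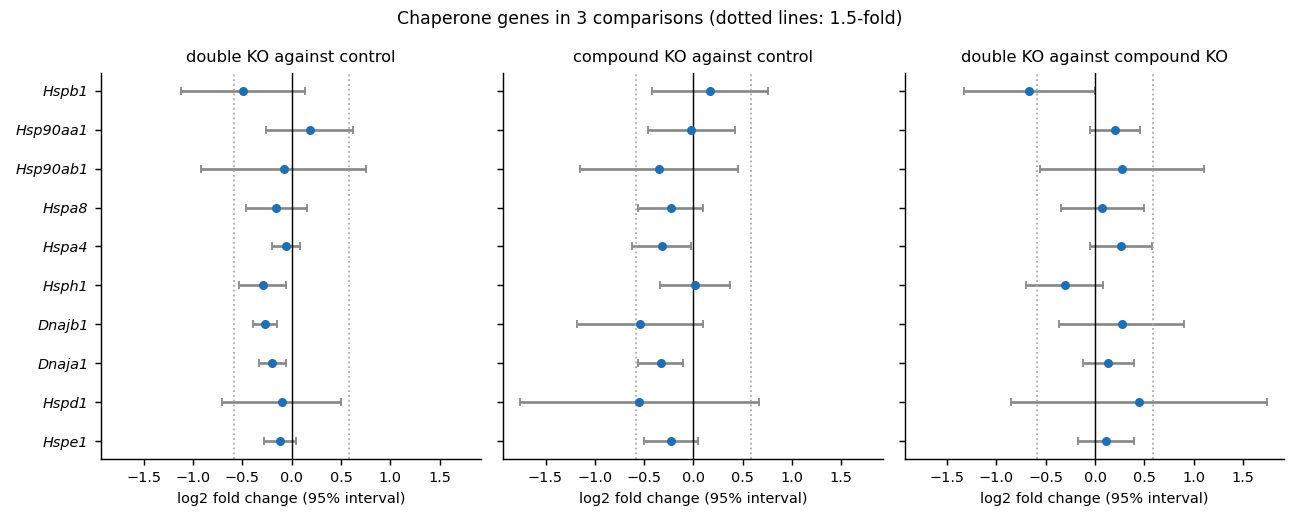
Log2 fold change (horizontal axis, points) with its 95% interval (bars) of each of the 10 chaperone genes in 3 comparisons, with dotted lines at a 1.5-fold change. In the comparison of double KO with control lenses the intervals of *Hsph1*, *Dnajb1* and *Dnaja1* lie below 0, and the widest intervals in the other panels belong to *Hspd1*.

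Levels of different genes can be compared per kilobase of transcript, for which the length of the canonical GENCODE transcript was used. On this scale *Hsp90ab1* was the highest gene in control lenses with 676 ± 197 CPM per kilobase (SD, n = 3), followed by *Hspa8* with 312 ± 17.7 (SD, n = 3). *Hsp90aa1* (84.7), *Hspe1* (76.7), *Hspa4* (67.7), *Dnajb1* (60.7) and *Dnaja1* (41.6) formed a middle range. *Hsph1* (11.4), *Hspb1* (9.35) and *Hspd1* (7.32) were the lowest. Neighbours in this order overlapped between control libraries for *Hsp90aa1* and *Hspe1*, for *Hsph1* and *Hspb1*, and for *Hspb1* and *Hspd1*, and the other neighbours did not. The order rests on these lengths, since the table does not name the transcript behind an entry.

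**Figure D4:**
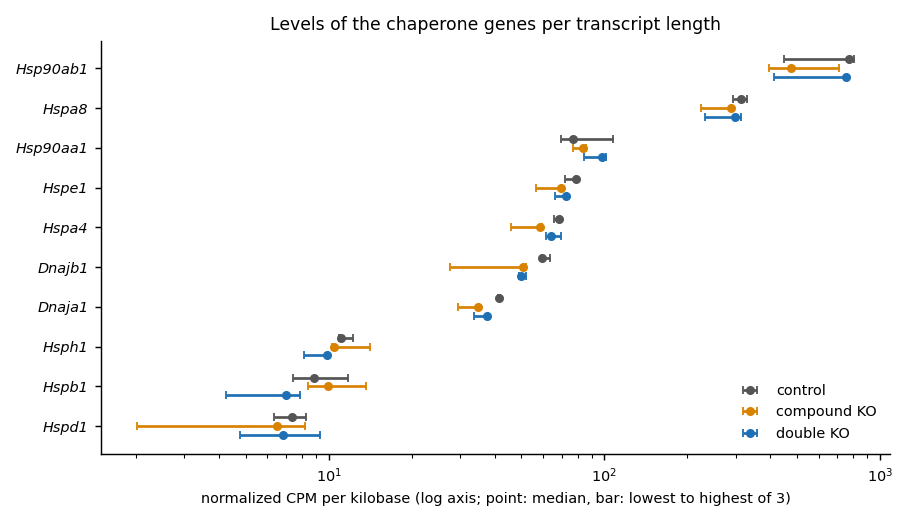
Normalized CPM per kilobase of canonical transcript (horizontal log axis) of the 10 chaperone genes, ordered by their mean in control lenses, with the median (point) and the lowest to highest of 3 libraries (bar) for each genotype. *Hsp90ab1* and *Hspa8* stand above the others in every genotype, and for *Dnajb1*, *Dnaja1* and *Hsph1* the control and double KO bars do not touch.

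Across the 9 libraries the 45 pairs among the 10 genes had a median Pearson's r of 0.35 on log2 values (range -0.72 to 0.93), and 0.29 without compound KO replicate 1. Picked after r was seen, *Dnaja1*, *Dnajb1*, *Hspa4*, *Hspa8* and *Hspe1* varied together, with r between 0.78 and 0.93 in their 10 pairs. Their r was between 0.54 and 0.89 without that library. Over all 45 pairs, an r of at least 0.7 was found in 14, and in 7 without it. *Hspb1* and *Hsph1* also varied together (r = 0.84, and 0.76 without it). Their negative r with the first group rested on that library: *Hsph1* had -0.64 with *Hspa4* and -0.45 with *Dnajb1* over 9 libraries, and -0.097 and 0.72 without it. The entries most like the mean of the 10 standardized genes, among 6436 entries of at least 10 CPM in every library, were *Gm15542* (r = 0.99), the RNA polymerase III subunit *Polr3f* (0.99), the AAA+ ATPase *Ruvbl1* (0.98), the proteasome ATPase *Psmc2* (0.98) and *Hadha* (0.98), an enzyme of mitochondrial fatty acid oxidation. *Psmc2*, for example, was at 122.0 to 128.0 CPM in control, 86.6 to 110.6 in compound KO and 99.5 to 112.9 in double KO libraries. These are descriptions over 9 libraries that share a composition scaling, in which compound KO replicate 1 is the lowest point. The r of ordinary pairs of entries was not computed, so whether these values are high was not tested.

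The wider chaperone network was described with 9 lists of 106 further genes, of which 96 could be tested between double KO and control lenses. None was called by limma in any of the 3 comparisons. In double KO against control lenses, 13 of the 96 had an unadjusted p of at most 0.05, 11 lower and 2 higher, beside the 9.97% of all entries in either direction and 5.18% lower given above. In compound KO against control lenses 12 of 96 had such a p, 11 lower and 1 higher. Over all entries 9.3% did in either direction and 3.97% lower. With libraries scaled by their totals alone, 5 of 95 did, 1 lower and 4 higher. In double KO against compound KO lenses 1 of 97 had such a p, against 4.87% of entries. The median log2 fold change in double KO against control lenses was -0.043. With libraries scaled by their totals alone, that median turned to 0.026 and 9 of the 96 had such a p, 6 lower and 3 higher.

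The small heat shock proteins other than *Hspb1* gave the lowest median of the 9 lists, -0.35 over 6 genes tested, with 5 of 6 below 0. *Cryab*, the alpha-B crystallin that is both a structural protein and a chaperone of fiber cells, was at 2533.8, 2545.5 and 3190.7 CPM in control, 791.4, 1123.6 and 1665.1 in compound KO and 1571.2, 1648.5 and 1869.4 in double KO libraries. Every control library was above every other library, by a wider margin than for any of the 10 genes. Its log2 fold change was -0.70 (adjusted p = 0.143) for double KO and -1.27 (adjusted p = 0.481) for compound KO against control. *Hspb11*, which despite its name is a subunit of the intraflagellar transport complex, had a log2 fold change of -0.48 (adjusted p = 0.273) for double KO against control, and *Hspb2* one of -0.22. *Hspb8*, a partner of the co-chaperone Bag3 at 5.2 to 5.5 CPM in control and 2.1 to 3.4 in double KO libraries, is named after its values were seen (-0.72, adjusted p = 0.247). *Cryaa*, *Hspb7* and *Hspb9* had no entry under these symbols and were not analysed here.

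Of the HSP70 and HSP110 genes other than the 10, 5 were tested between double KO and control lenses, with a median of -0.030. The testis-enriched HSP110 gene *Hspa4l* had -0.20 (adjusted p = 0.479), *Hspa14* 0.058 and *Hspa13* -0.033. The stress-inducible genes *Hspa1a* and *Hspa1b*, near-identical copies whose reads are hard to assign to either, are named after their values were seen. They were at 0.3 to 1.1 CPM in 8 libraries, while compound KO replicate 1 had 6.1 for *Hspa1a* and 2.7 for *Hspa1b*. The same library was highest for *Hsph1* and *Hspb1* and lowest for *Dnajb1*, all of them genes that stress can induce. Among nucleotide exchange factors and adaptors, 10 were tested, with a median of -0.035. *St13*, which binds HSP70 and helps pass clients on to HSP90, was at 283.4 to 296.9 CPM in control, 173.5 to 244.8 in compound KO and 229.2 to 265.6 in double KO libraries (-0.22, adjusted p = 0.379). *Hspbp1* had -0.37 and *Bag2* -0.078.

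Of 13 other J-domain co-chaperones of cytosol and nucleus, 8 were below 0, with a median of -0.092. *Dnajc6*, the auxilin that uncoats clathrin vesicles with Hspa8, had the largest estimate of the list (-1.40, adjusted p = 0.756), but it varied from 9.6 to 26.6 CPM within control and from 0.3 to 21.4 within double KO libraries. *Dnajb2* had -0.44 and the splicing-associated *Dnajc8* had 0.42 (adjusted p = 0.403), with double KO libraries above all control libraries.

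Of 16 HSP90 co-chaperones, 9 were below 0, with a median of -0.055. *Ahsa2*, an activator of the HSP90 ATPase, was at 40.9 to 42.5 CPM in control, 27.8 to 32.4 in compound KO and 18.1 to 31.8 in double KO libraries (-0.65, adjusted p = 0.410). The related activator *Ahsa1* (-0.26, adjusted p = 0.219) and the co-chaperone *Chordc1* (-0.20, adjusted p = 0.405), both named after their values were seen, were also lower without overlap. *Fnip1*, which slows the HSP90 ATPase, was at 11.3 to 11.7 CPM in control and 13.9 to 14.7 in double KO libraries (0.29, adjusted p = 0.278). *Ptges3*, the p23 co-chaperone, had 0.88 (adjusted p = 0.695) through a single library, double KO replicate 2, with 53.4 CPM against 9.2 to 13.6 in the others.

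The TRiC chaperonin, which folds actin and tubulin, and prefoldin gave a median of -0.041 over 14 genes. *Cct3* was at 304.0 to 313.9 CPM in control and 261.0 to 290.5 in double KO libraries (-0.19, adjusted p = 0.351), *Pfdn6* had 0.28, and *Tcp1* had 0.44 through control replicate 1, with 180.4 CPM against 498.0 and 528.4 in the other control libraries. The 12 other mitochondrial chaperones and proteases were split evenly, 6 and 6, with a median of -0.0056, and *Dnlz* (0.21), *Dnaja3* (-0.13) and *Hspa9* (-0.12), the mitochondrial HSP70, had the largest estimates. The 16 chaperones of the endoplasmic reticulum gave a median of -0.012 and none had an unadjusted p of at most 0.05. Their largest estimates belonged to the collagen chaperone *Serpinh1* (-1.08, adjusted p = 0.793), with 73.6 CPM in control replicate 3 and 78.2 in compound KO replicate 2 against 4.5 to 6.3 in the other libraries, to *Calr* (-0.96, adjusted p = 0.555), and to *Dnajb9* (0.19).

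*Hsf4*, the heat shock factor needed for normal lens fibers, was at 43.5, 61.9 and 37.7 CPM in control, 23.1, 46.8 and 37.3 in compound KO and 55.3, 46.5 and 44.9 in double KO libraries. Control and double KO libraries overlapped, with a log2 fold change of 0.060 (adjusted p = 0.953). *Hsf1*, the main factor of the heat shock response, had -0.40 (adjusted p = 0.836), *Hsf2* had -0.45 (adjusted p = 0.877) and *Hsbp1*, a repressor of *Hsf1*, had 0.23 (adjusted p = 0.964), each with wide spread between replicates. *Hsbp1* was listed at 0 in 5 of the 9 libraries.

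**Figure D5:**
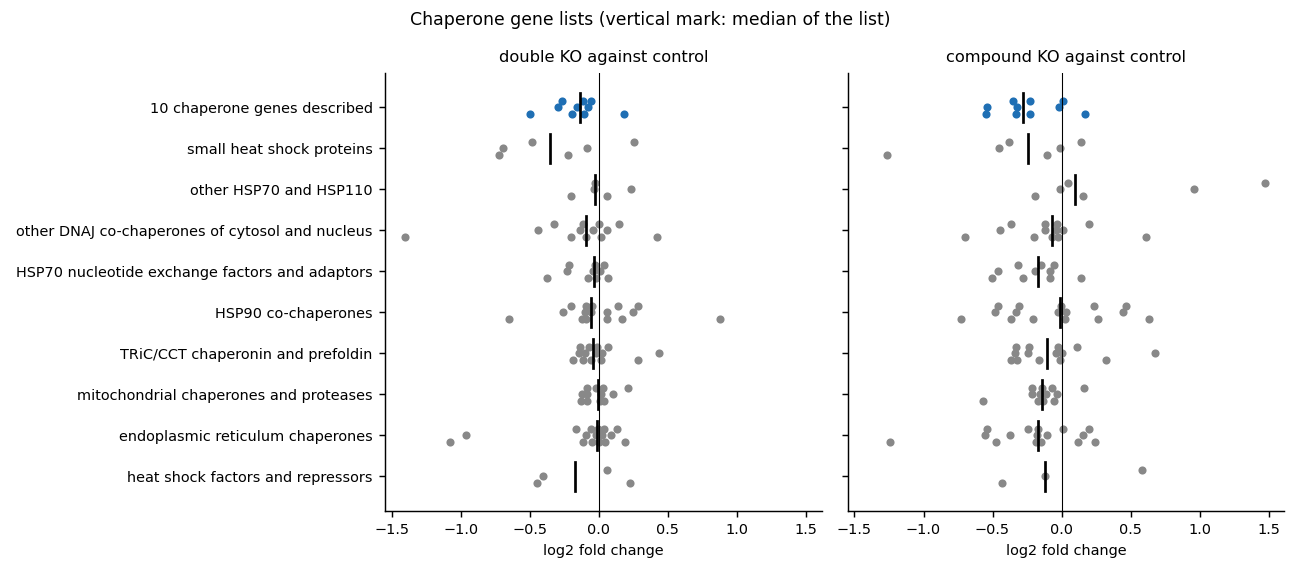
Log2 fold change (horizontal axis) of every tested gene of the 10 chaperone genes and of the 9 lists, in double KO (left) and compound KO (right) against control lenses, with a vertical mark at the median of each list. The small heat shock proteins have the lowest median in the left panel (-0.35), and most medians of the other lists lie close to 0 there.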

How the data were processed

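The deposited table holds a signal per entry, which the authors made from strand-specific paired-end reads as normalized CPM after low values were filtered. Tools named by the submitters are Trimmomatic, HISAT2 (mm39), Cufflinks, StringTie and edgeR, with versions not given in the sources used here. Values are rounded to 1 decimal and scaled by composition, so that totals ran from 728036 to 1131184. They ran from 1036870 to 1131184 in control, 728036 to 1022858 in compound KO and 977149 to 1081318 in double KO libraries. Depth is unknown and no counting interval is given.

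Groups followed the labels. Each comparison was fitted with limma 3.58.1 (trend, under R 4.3.3) on values logged to base 2 after adding 1, over entries with a symbol that reached 1 in at least 2 of 6 libraries, with Benjamini-Hochberg adjustment over all of them, and tested on simulated data. A call needed an adjusted p of at most 0.05 and 1.5-fold. With 3 against 3 libraries an exact permutation test cannot go below p = 0.1. The labels call the libraries biological replicates.

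The 10 genes and the lists were chosen with earlier results of these data known. Named list genes are those called, up to 3 per list whose double KO and control lenses differed most on the log2 scale with a group mean of at least 10, all tested heat shock factors, and the 5 entries most correlated with the 10 genes. Promoters came from RefSeq (GRCm38.p6) and were located in GRCm39 with GENCODE annotation.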

Additional observations from a re-analysis of the deposited data

How the results depend on the processing

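None of the 10 genes was called by limma under any alternative run, and their lowest adjusted p was 0.152. Of 423 log2 fold changes of these genes under alternatives, 401 kept their direction and 22 turned, all among values that were not called. With libraries scaled by their totals alone, *Hspa4* turned to 0.011 in double KO against control, *Hsp90aa1* to 0.24, *Hspa8* to 0.027 and *Hspe1* to 0.024 in compound KO against control, and *Hspa8* to -0.11, *Dnaja1* to -0.051 and *Hspe1* to -0.073 in double KO against compound KO. When libraries were left out singly, double KO against control ran from -0.35 to 0.21 for *Hsp90ab1* and from -0.32 to 0.13 for *Hspd1*. In compound KO against control it ran from -0.0080 to 0.33 for *Hspb1*, -0.15 to 0.17 for *Hsp90aa1*, -0.13 to 0.093 for *Hsph1* and -0.90 to 0.0081 for *Hspd1*. In double KO against compound KO it ran from -0.046 to 0.21 for *Hspa8*, -0.029 to 0.43 for *Dnajb1* and -0.11 to 0.80 for *Hspd1*. Compound KO replicate 1 gave one end of the range for 6 of these 7 genes and comparisons with compound KO lenses, all but *Hsp90aa1*. The causes were not tested.

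By unadjusted limma p of at most 0.05 with 1.5-fold, 3 of 96 tested genes of the wider lists passed in double KO against control. In compound KO against control 1 of 96 passed, and in double KO against compound KO 1 of 97. By the same rule, 400 of 14122, 766 of 14348 and 440 of 14402 entries passed over all entries tested. Over all entries 51, 0 and 2 were called. These counts became 21, 2 and 5 in 1 fit of all 9 libraries. Leaving out a library gave 22 to 47, 0 to 13 (13 without compound KO replicate 1) and 1 to 6, with 22 without control replicate 3 and 27 without double KO replicate 1 in the first. In double KO against compound KO, a pseudocount of 0.1 gave 1 and a value of 1 in all 6 libraries gave 0. Correlations of same-numbered deviations ran from -0.093 to 0.20. Differently numbered libraries were not compared, so these values do not settle whether the replicate numbers pair the samples. With the replicate number as a block 10, 0 and 0 entries were called, and none of the 10 genes. The sum with the entry without a symbol was added after the data were seen. DESeq2 was not run, since the values are not counts.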
